A study of Rattus norvegicus with 2 samples.

Results

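Circular RNAs (circRNAs) made from genes of cell adhesion and of the extracellular matrix were examined in 2 libraries, 1 from a bone cancer pain (BCP) group and 1 from its control. Members were chosen by the name of the host gene alone, that is the gene whose transcript is back-spliced. They were the integrins (ITGA, ITGB), laminins, ADAM and ADAMTS proteases, matrix metalloproteases and their inhibitors (MMP, TIMP), fibrillins, thrombospondins, lysyl oxidases, cadherins, protocadherins, catenins, talins and kindlins by the start of their symbol, and FN1, SPARC, VCL and PXN by name. Collagens, FAT1 and PTK2 were not included. In all, 166 of 17260 circRNAs, from 43 of 4993 host genes, were members.

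In the BCP group, living cells of Walker256, a line from a rat breast carcinoma that was first passed through the peritoneal cavity of SD rats, were put into the tibial marrow, and the animals were killed 21 days later. Controls had the same operation with Walker256 cells that had been boiled for 20 minutes, and were kept for the same 21 days. Each group had 3 animals and gave 1 library and 1 column of values, so a group has no spread between replicates. No difference below was tested between conditions. The 95% intervals are exact binomial ones and take in counting error alone. The labels disagree on the source, which they give as hydrostatic cancer cells, as the Walker256 line and as spinal cord cells of injected rats, and do not say whether animals were pooled.

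The BCP library held 151685 circular junction reads and the control library 159941. The identifiers in the table are human in style although the labels give rat. All 43 member symbols have a protein-coding rat gene of the same name in the rat gene table (assembly GRCr8), but the chromosome number in the deposited table matched it for 2 of the 43. Positions below are printed as the table lists them, without a build, because the table names none. None of 16 neuronal markers and none of 14 leukocyte and marrow markers had a circRNA under its own name. Among oligodendrocyte markers 2 of 10 did (MBP and MYRF, 5 reads in the BCP and 2 in the control library together), as did 1 of 7 astrocyte markers (GJA1, 4 BCP reads and no control reads) and 1 of 12 epithelial and carcinoma markers (KRT7, 15 BCP and 2 control reads). Among endothelial and fibroblast markers it was 4 of 15. Linear RNA was digested before sequencing, so these counts do not measure the markers' mRNA.

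Integrins are receptors made of an alpha and a beta chain that bind laminins, fibronectin and other matrix proteins outside the cell. Inside the cell, talin and kindlin bind the beta chain, and vinculin and paxillin join the adhesion to actin and to signalling. Cadherins hold neighbouring cells together and are tied to actin by catenins, while ADAM, ADAMTS and MMP proteases cut surface and matrix proteins. A circRNA arises when a downstream splice site of such a gene joins an upstream one, and its junction reads measure neither the gene's mRNA nor its protein.

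The name integrins and laminins fits few of the reads. Together these classes held 79 of the 2648 member reads over both libraries (2.98%, interval 2.37 to 3.70). Genes named ADAM, ADAMTS, ADAMTSL or MMP, not all of them active proteases, held 1874 (70.8%, 69.0 to 72.5). ADAMTS6 by itself held 1320 (49.8%, 47.9 to 51.8). Members as a whole had 1348 reads in the BCP library, or 0.889% of its junction reads (0.842 to 0.937). They had 1300 reads in the control library, or 0.813% (0.769 to 0.858). The ratio of the BCP share to the control share was 1.09 (1.01 to 1.18). Without ADAMTS6 the sums were 610 BCP and 718 control reads, with a ratio of 0.896 (0.803 to 0.999), so the direction of the sum rested on that gene.

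**Figure D1:**
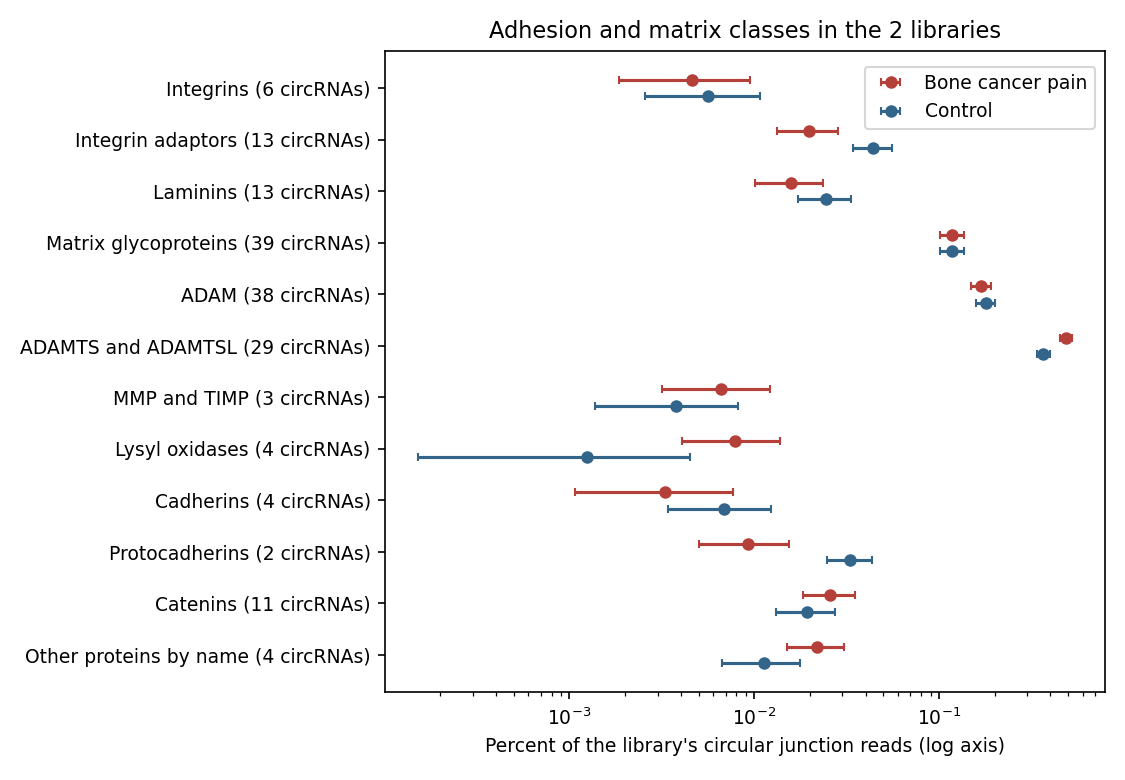
Share of each library's circular junction reads (percent, log axis) taken by each class, with the BCP library above the control library in each pair. Points are the single value of each library and bars are exact binomial 95% intervals. ADAMTS and ADAMTSL had the largest share in both libraries (0.488% in BCP and 0.366% in control), and the bars of ADAMTS and ADAMTSL, integrin adaptors and protocadherins do not overlap between the libraries.

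The rat gene table holds 26 integrin subunit genes, and the symbols of 4 of them (15.4%, 4.36 to 34.9) were listed as hosts, namely ITGA1, ITGA3, ITGAV and ITGB5. The match was by symbol alone, and the listed chromosome numbers mostly differ from the rat ones. Over all 226 rat genes that the naming rule takes, 43 had a host of the same symbol (interval 14.1 to 24.8%), beside 4391 of all 23148 protein-coding genes (18.5 to 19.5%). ITGAV, the alpha chain shared by several receptors for RGD-bearing matrix proteins, had 4 reads in the BCP and 2 in the control library. ITGA1, a collagen-binding chain, had 3 BCP and 3 control reads. ITGA3, a laminin-binding chain, and ITGB5, a partner of ITGAV, each had no reads listed in the BCP library and 2 in the control library. No integrin junction was listed in both libraries, and the class summed to 7 BCP and 9 control reads (46.1 RPM in BCP and 56.3 RPM in control; RPM are reads scaled to a common library total). Over all 15108 circRNAs with 1 host gene, 43.9% were listed in both, a share that also stands beside the counts of unshared junctions below. The 6 integrin junctions had a median of 2.5 reads over both libraries, beside 5 for all. At this depth no difference in integrin circRNAs was detectable.

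The adaptors that tie integrins to actin were lower in the BCP library. Their 4 hosts summed to 30 reads there, against 70 in the control library (198 RPM in BCP and 438 RPM in control), a ratio of 0.45 (0.28 to 0.70). VCL, which codes for vinculin, a protein that links talin to actin, had 23 BCP and 48 control reads on 7 junctions (0.51, 0.29 to 0.85). TLN1, which codes for talin 1, had 2 BCP and 13 control reads (0.16, 0.018 to 0.72). PXN, which codes for paxillin, had no BCP reads listed and 6 control reads. FERMT2, which codes for kindlin-2, had 5 BCP and 3 control reads, with no junction listed in both libraries. Fewer reads in the BCP library were listed for 3 of the 4 adaptor hosts, but the share of all host genes with fewer is not given here. Only 2 of the 4 had 10 or more reads. Of these, 1 (TLN1) had a ratio of at most 0.5 with 0.5 reads added, beside 14.2% of all such host genes. VCL gave most of the difference in the summed reads. For this and all later differences, fewer cells of a type and less RNA per cell cannot be told apart.

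In VCL the end at position 75830428 of chromosome 10 was used by 4 of the 7 junctions, which took 21 of 23 reads in the BCP library and 36 of 48 in the control library. The junction to position 75832610 (hsa_circ_0007797, an identifier of circBase, a catalogue of human circRNAs) had 7 BCP and 20 control reads (0.37, 0.13 to 0.91). The junction to 75834661 (hsa_circ_0018881) had 10 BCP and 11 control reads (0.96, 0.36 to 2.49). The first had the most VCL reads in the control library and the second in the BCP library, but the intervals of their shares of VCL reads overlapped between the libraries.

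Laminins, the trimeric proteins of the basement membrane, had 5 hosts and 24 reads in the BCP library, against 39 in the control library (158 RPM in BCP and 244 RPM in control). The ratio was 0.65, with an interval that includes 1 (0.37 to 1.11). LAMC1, the gamma chain found in most laminins, had 9 BCP and 10 control reads (0.95, 0.34 to 2.60). LAMA5 had 7 BCP and 12 control reads (0.62, 0.21 to 1.69), and its main junction of 163 bp had 7 BCP and 6 control reads. LAMB1 had 3 BCP and 11 control reads, spread over 5 junctions of which none was in both libraries. LAMA3 had 2 BCP and 6 control reads, and LAMA4 had 3 BCP reads and no control reads listed. No laminin host reached 20 reads.

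The matrix glycoproteins had nearly equal sums that hid opposite directions. Their 5 hosts had 179 reads in the BCP and 188 in the control library (1180 RPM in BCP and 1175 RPM in control), a ratio of 1.00 (0.81 to 1.24). FN1, which codes for fibronectin, the ligand of several integrins, had 61 BCP and 24 control reads (2.68, 1.65 to 4.49). SPARC, a collagen-binding glycoprotein, had 27 BCP and 69 control reads (0.41, 0.25 to 0.65). Its direction rested on 1 junction and was 1.43 on shared junctions (0.73 to 2.84), as given below. FBN1, the main fibrillin of elastic microfibrils, had 76 BCP and 65 control reads (1.23, 0.87 to 1.74), and FBN2 had 11 BCP and 18 control reads (0.64, 0.28 to 1.44). THBS1, the secreted thrombospondin 1, had 4 BCP and 12 control reads on 3 junctions, none of them in both libraries.

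The FN1 reads were spread thinly. Of its 14 junctions, 9 were listed for the BCP library only, 2 for the control library only and 3 for both. Of all 15108 circRNAs with 1 host gene, 4243 were listed for BCP only, 4229 for control only and 6636 for both. Junctions not listed in the other library held 40 of the 61 BCP reads (65.6%, 52.3 to 77.3) and 11 of the 24 control reads (45.8%, 25.6 to 67.2). The junction with the most reads in the BCP library (hsa_circ_0058092, chromosome 2, 216238045 to 216256537) had 11 BCP and 2 control reads (5.80, 1.27 to 53.8). The one with the most in the control library (hsa_circ_0002341, 216279560 to 216284108) had none listed in the BCP library and 8 in the control library. On the 3 junctions listed in both, FN1 had 21 BCP and 13 control reads (1.70, 0.81 to 3.70), so that the interval of the shared junctions includes 1. On the 2 catalogued junctions it had 11 BCP and 10 control reads (1.16, 0.45 to 3.05).

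FN1 is also made by fibroblasts and endothelium. The summed markers of those cells were higher in the BCP library as well, mostly through COL3A1, while FLT1 and TIE1 had fewer reads there. The 4 of 15 with a circRNA (COL3A1, FLT1, TEK and TIE1) summed to 82 reads in the BCP library, against 46 in the control library. COL3A1 had 59 BCP and 24 control reads of these (2.59, 1.59 to 4.36), TEK had 13 BCP and 4 control reads, FLT1 had 7 BCP and 13 control reads (0.57, 0.19 to 1.53) and TIE1 had 3 BCP and 5 control reads. Of the 3 markers with 10 or more reads, 2 had a ratio of at least 2 and none of at most 0.5, with a median log2 ratio of 1.36. Over all such host genes, 13.3% had a ratio of at least 2 and 14.2% of at most 0.5. PECAM1, CDH5, PDGFRB, PDGFRA, COL1A1 and COL1A2 were among the 11 with none under their own name. The part of such cells in the FN1 difference was not tested.

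SPARC turned on 1 junction. At chromosome 5, 151054173 to 151055762, a junction of 1590 bp without a catalogue identifier had no reads listed in the BCP library and 52 in the control library. The catalogued junction (hsa_circ_0004104, 151043648 to 151049345) had 23 BCP and 17 control reads (1.43, 0.73 to 2.84). Without the uncatalogued junction SPARC had 27 BCP and 17 control reads (1.67, 0.88 to 3.27), so its direction reversed. THBS1 was alike in form, since its 12 control reads all lay on 1 uncatalogued junction of 210 bp (chromosome 15, 39874672 to 39874881).

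FBN1 had 14 junctions, of which 3 were listed in both libraries, 8 for BCP only and 3 for control only. Of all circRNAs with 1 host gene, 43.9% were listed in both. Its leading junction (hsa_circ_0007852, chromosome 15, 48888480 to 48892431) had 26 BCP and 18 control reads (1.52, 0.80 to 2.95). A second catalogued junction from the same end (hsa_circ_0008421, to 48905289) had 13 BCP and 12 control reads (1.14, 0.48 to 2.74). The intervals of both junctions include 1. An uncatalogued junction at 48726791 to 48734043 had none listed in the BCP library and 16 reads in the control library.

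**Figure D2:**
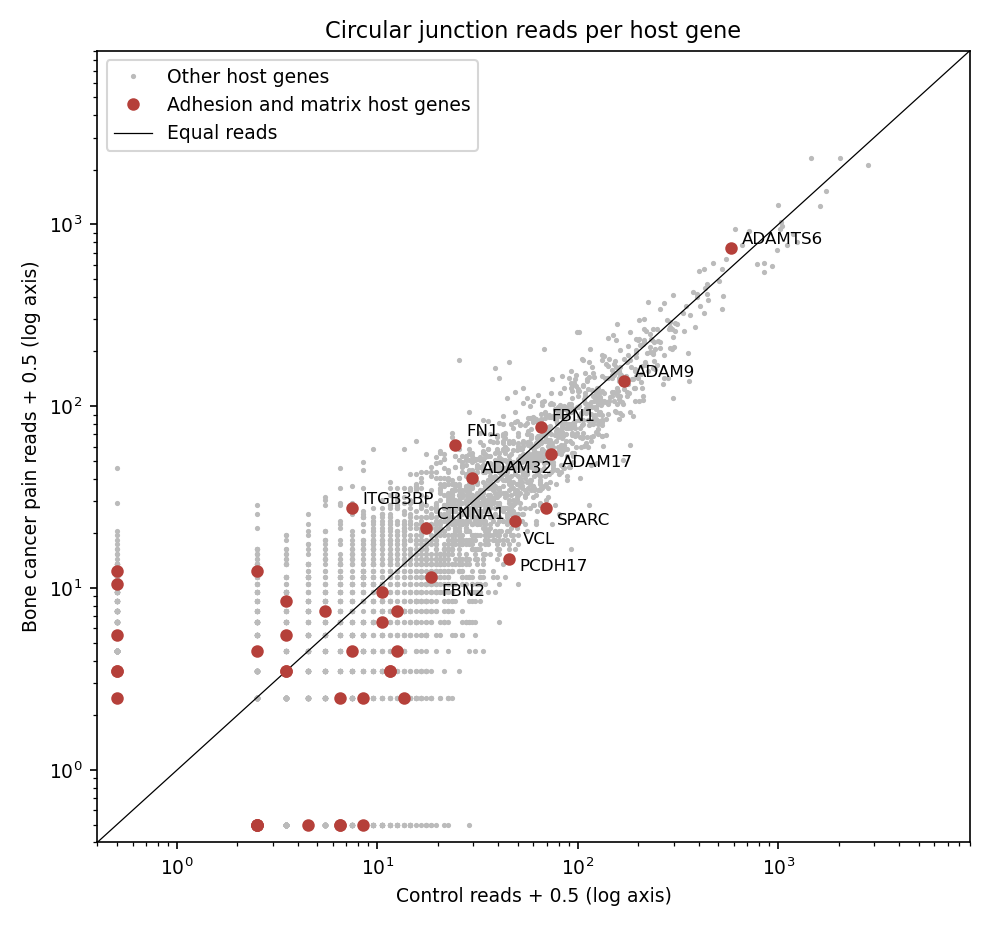
Circular junction reads of each host gene in the BCP library (vertical) against the control library (horizontal), with 0.5 reads added, on log axes. Red points are the 43 members, grey points the other host genes, and named points have 20 or more reads over both libraries. FN1 and ITGB3BP lie above the line of equal reads, and SPARC, PCDH17 and VCL lie below it.

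ADAMTS6, a secreted metalloprotease of the thrombospondin-repeat family, was the most abundant member. It had 738 reads in the BCP library and 582 in the control library (4865 RPM in BCP and 3639 RPM in control), a ratio of 1.34 (1.20 to 1.49). It took 54.7% of the member reads in the BCP library (52.0 to 57.4) and 44.8% in the control library (42.0 to 47.5). It ranked 21 by reads and 8 by junctions among the 4993 host genes. The other hosts of its class had 2 reads each, ADAMTSL1 in the BCP library, and ADAMTS7 and ADAMTSL5 in the control library.

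Of the 26 ADAMTS6 junctions, 19 were listed in both libraries (73.1%, 52.2 to 88.4), beside 44 of the other 140 member circRNAs (31.4%, 23.9 to 39.8). They also had more reads, with a median of 9.5 over both libraries beside 4.0, and the part of depth in the sharing was not tested. The leading junction (hsa_circ_0072688, chromosome 5, 64747302 to 64769779) had 356 BCP and 255 control reads (1.47, 1.25 to 1.74). It made up 48.2% of ADAMTS6 reads in the BCP library (44.6 to 51.9) and 43.8% in the control library (39.7 to 48.0).

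Of the 19 ADAMTS6 junctions listed in both libraries, 11 had a ratio above 1 and 8 below 1. For 4 the interval lay above 1 and for none below. Besides the leading one these were hsa_circ_0008667 (64466444 to 64492978) with 50 BCP and 11 control reads (4.79, 2.46 to 10.2), hsa_circ_0072690 (64766605 to 64769779) with 16 BCP and 4 control reads (4.22, 1.36 to 17.3), and hsa_circ_0072685 (64625205 to 64769779) with 14 BCP and 3 control reads (4.92, 1.37 to 26.7). The last spans 144575 bp, the longest of all member circRNAs. Of these 4 junctions, 3 ended at 64769779. How many junctions of other genes had such an interval is not given here.

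Some other ADAMTS6 junctions had near-equal reads. The junction hsa_circ_0006489 (64556427 to 64569274) had 65 BCP and 75 control reads (0.91, 0.65 to 1.29), hsa_circ_0004418 (64556427 to 64587297) had 37 BCP and 39 control reads (1.00, 0.62 to 1.61), and hsa_circ_0008674 (64747302 to 64748745) had 30 BCP and 31 control reads (1.02, 0.60 to 1.74). For hsa_circ_0072672 (64520147 to 64522046), 71 BCP and 52 control reads gave 1.44 (0.99 to 2.10). That ratio was close to the 1.47 of the leading junction, but its interval includes 1. Without the leading junction the gene had 382 BCP and 327 control reads (1.23, 1.06 to 1.43), so its direction did not rest on that junction. Without hsa_circ_0008667 as well, left out after its value was seen, it had 332 BCP and 316 control reads. That ratio was 1.11, with an interval that includes 1 (0.95 to 1.30).

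Every ADAMTS6 junction shared an end with another. The end at 64747302 was used by 4 junctions with 54.5% of the gene's reads in the BCP library and 53.1% in the control library. The end at 64769779 was used by 5, with 53.4% in the BCP library and 45.9% in the control library. A pair of ends 4 bp apart, 64569270 and 64569274, was used from 2 different partner ends. From 64556427, the first of the pair had 21 BCP and 24 control reads and the second 65 BCP and 75 control reads. From 64537931 the first had 3 BCP and 7 control reads and the second 19 BCP and 21 control reads. The second position thus had more reads in both libraries and from both partners.

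**Figure D3:**
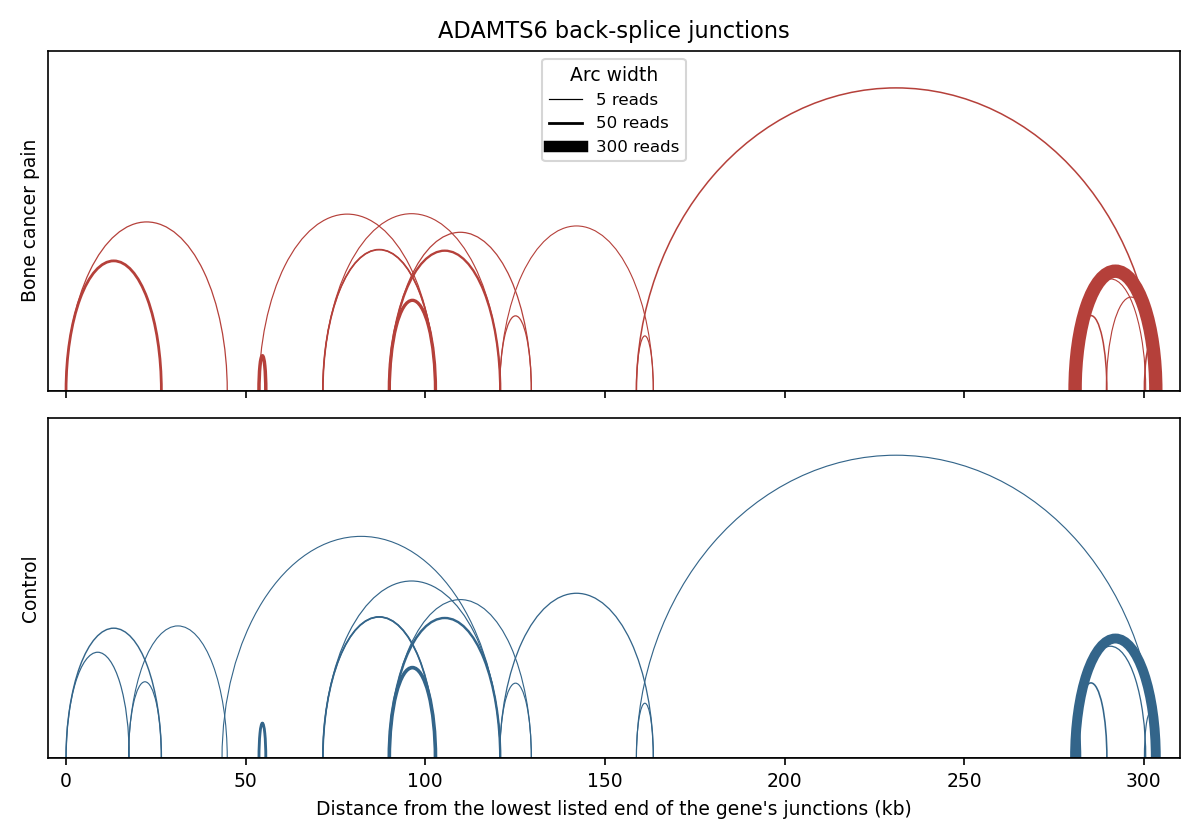
Back-splice junctions of ADAMTS6 drawn as arcs between their ends, with distance in kb from the lowest listed end on the horizontal axis, for the BCP library (top) and the control library (bottom). Arc width grows with reads, and arc height follows the square root of the span. The thickest arc in both libraries is hsa_circ_0072688, with 356 BCP and 255 control reads.

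The ADAM family, of which many but not all members shed proteins from the cell surface, had 255 reads in the BCP and 287 in the control library (1681 RPM in BCP and 1794 RPM in control). The ratio of 0.94 had an interval that includes 1 (0.79 to 1.11). ADAM9 had 137 BCP and 170 control reads (0.85, 0.67 to 1.07) and ADAM17, the protease that releases tumour necrosis factor, had 54 BCP and 73 control reads (0.78, 0.54 to 1.12). On its catalogued junctions ADAM17 had 32 BCP and 28 control reads (1.21, 0.70 to 2.08), which turns the direction. ADAM32, known for its testis expression, had 40 BCP and 29 control reads (1.45, 0.88 to 2.43). Its catalogued junctions had 2 BCP and 4 control reads (0.53, 0.048 to 3.68), again in the other direction. ADAM10, which cuts Notch and cadherins, had 8 BCP and 3 control reads (2.81, 0.67 to 16.5). ADAM19 had 4 BCP and 7 control reads, ADAM22, which lacks protease activity and binds LGI1 in neurons, had 7 BCP and 5 control reads, and ADAM15 had 5 BCP reads and no control reads listed.

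Named below are leading junctions of ADAM17 and ADAM9 and junctions among the 5 highest and 5 lowest member circRNAs by ratio. Opposite directions among the latter were set by that choice. How many junctions of other genes had such intervals is not given here. In ADAM17, the junction hsa_circ_0000974 (chromosome 2, 9650108 to 9668083) had 20 BCP and 6 control reads (3.51, 1.36 to 10.7). The uncatalogued junction at 9675963 to 9676957 had 20 BCP and 40 control reads (0.53, 0.29 to 0.92). Junctions from the end 9675963 took 53.7% of ADAM17 reads in the BCP library and 82.2% in the control library. Those from 9650108 took 42.6% in the BCP library and 17.8% in the control library. These ends hold the junctions just named, and their shares are given without intervals. The sum of the gene did not show this shift.

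In ADAM9 the leading junction (hsa_circ_0084051) had 84 BCP and 107 control reads (0.83, 0.61 to 1.11), and its share of the gene was close in both libraries, at 61.3% in BCP (52.6 to 69.5) and 62.9% in control (55.2 to 70.2). The junction hsa_circ_0005296 had 17 BCP and 7 control reads (2.56, 1.01 to 7.30), while hsa_circ_0001791 had 6 BCP and 19 control reads (0.33, 0.11 to 0.87). In ADAM32, 7 of 13 junctions started from 1 end and held 32 of 40 reads in the BCP library (80.0%) and 20 of 29 in the control library (69.0%). No ADAM32 junction had more than 12 reads in either library.

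**Figure D4:**
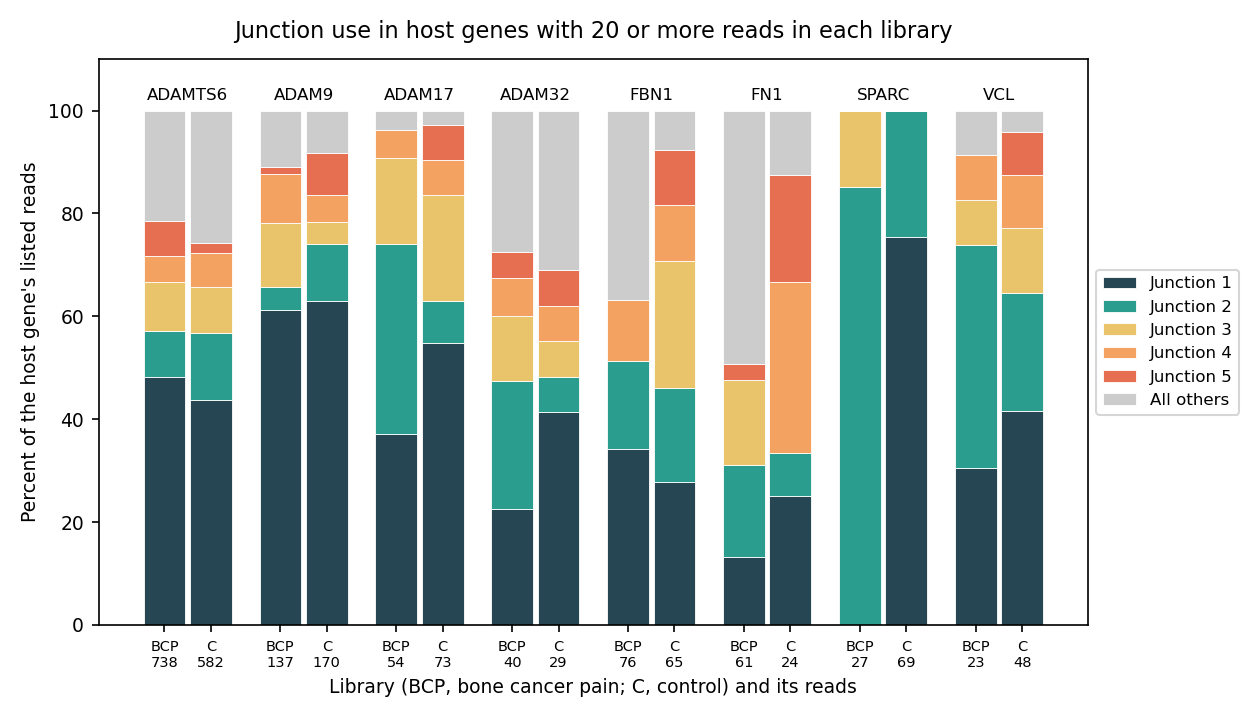
Percent of a host gene's listed reads on each junction, for the 8 host genes with several junctions and 20 or more reads in each library. In each pair the left bar is the BCP library and the right bar the control library (C), with its reads below, and junctions are ordered by reads over both. SPARC has no reads on its first junction in the BCP library, against 75.4% in the control library.

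Among these 8 host genes the leading junction was the same in both libraries for 4, namely ADAMTS6, ADAM9, FBN1 and ADAM17, where in the BCP library it was tied with hsa_circ_0000974 at 20 reads. It differed for ADAM32, FN1, SPARC and VCL. In SPARC the catalogued junction held 85.2% of reads in the BCP library (66.3 to 95.8) and 24.6% in the control library (15.1 to 36.5). For VCL and ADAM32 the intervals of the junction shares overlapped between the libraries, so the order of their first 2 junctions was not settled at this depth.

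Other matrix enzymes had few reads. LOXL2, a lysyl oxidase that cross-links collagen, had 12 reads in the BCP library and 2 in the control library (6.33, 1.41 to 58.2). Its only junction listed in both had 2 BCP and 2 control reads, and the other 3 were listed for BCP only. TIMP2, an inhibitor of matrix metalloproteases, had 10 reads on 1 junction (hsa_circ_0045948, chromosome 17, 76866980 to 76870001) and none listed in the control library. MMP16, a membrane-bound metalloprotease, had none listed in the BCP library and 6 reads in the control library. By symbol alone, these were 2 of the 28 MMP and TIMP genes in the rat gene table (7.14%, 0.877 to 23.5).

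By symbol alone, 2 of the 23 cadherin genes in the rat gene table had a host of the same name (8.70%, 1.07 to 28.0). For the protocadherin genes it was 2 of 50 (4.00%, 0.488 to 13.7), beside the 18.5 to 19.5% of all protein-coding genes. PCDH17, a protocadherin of neural tissue, had 14 reads in the BCP library and 45 in the control library (0.33, 0.17 to 0.61). All of them lay on 1 uncatalogued junction of 366 bp (chromosome 13, 58240602 to 58240967). PCDH7 had no BCP reads listed and 8 control reads under its own name alone. Entries that join it with small RNA names had 13 BCP and 21 control reads and are not in the sum below. CDH13, a cadherin anchored by a lipid tail, had 2 BCP and 8 control reads (0.26, 0.027 to 1.32), and CDH11, a mesenchymal cadherin, had 3 BCP and 3 control reads on different junctions. Protocadherins summed to 14 BCP and 53 control reads (92.3 RPM in BCP and 331 RPM in control; 0.28, 0.14 to 0.51), and cadherins to 5 BCP and 11 control reads (33.0 RPM in BCP and 68.8 RPM in control).

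The catenins had 39 reads in the BCP library and 31 in the control library (257 RPM in BCP and 194 RPM in control; 1.33, 0.81 to 2.20). CTNNA1, the alpha-catenin that binds actin, had 21 BCP and 17 control reads (1.30, 0.65 to 2.63), of which 14 BCP and 10 control reads were on hsa_circ_0074158. CTNNB1, the beta-catenin of adhesion and Wnt signalling, had 6 BCP and 10 control reads on its 1 junction (0.63, 0.19 to 1.92). CTNNAL1, an alpha-catenin relative, had 12 reads on 3 junctions and none listed in the control library. CTNND1, or p120 catenin, had no BCP reads listed and 4 control reads.

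The naming rule also took 3 genes that belong to none of these families. ITGB3BP, a centromere protein in spite of its name, had 27 reads in the BCP library and 7 in the control library (4.07, 1.73 to 11.1). Both its junctions shared the end 63944435 on chromosome 1, and both were higher, at 17 BCP and 5 control reads (hsa_circ_0004586; 3.59, 1.27 to 12.4) and 10 BCP and 2 control reads (5.27, 1.12 to 49.5). CTNNBIP1, an inhibitor of beta-catenin, had 3 BCP and 11 control reads, and CTNNBL1, a splicing factor, had 3 BCP reads and no control reads listed.

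A host gene was called at a ratio of at least 2 or at most 0.5, with 0.5 reads added to each library, if it had 10 or more reads over both, which is a size and not a test. Of the 26 member hosts with 10 or more reads, 6 were called higher in the BCP library, namely ADAM10, FN1, ITGB3BP, LOXL2, TIMP2 and CTNNAL1, where 13.3% of all 3038 such host genes were. Lower were 7, namely TLN1, CDH13, LAMB1, CTNNBIP1, PCDH17, THBS1 and SPARC, where 14.2% of all were. TIMP2 and CTNNAL1 had no reads listed in the control library. They met the read minimum through the BCP library alone, which fixed their call. LAMB1 and THBS1 had no junction listed in both libraries. The median log2 ratio of the 26 was -0.29, beside -0.03 for all host genes, but it was 0.28 on junctions listed in both libraries. Of the 46 member circRNAs with 10 or more reads, 11 were called higher, beside 16.9% of all 4975, and 9 lower, beside 16.7%. Of the 12 member hosts with 20 or more reads, the interval lay above 1 for 3 (ADAMTS6, FN1 and ITGB3BP), below 1 for 3 (SPARC, PCDH17 and VCL) and included 1 for 6. The matching share of all host genes is not given here, so these interval counts do not set the members apart.

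Features that the naming rule did not use were set beside those of all circRNAs. In both libraries 63 of 166 were listed (38.0%, 30.5 to 45.8), beside 43.9% of all 15108 circRNAs with 1 host gene (43.1 to 44.7). Another 56 were listed for the BCP library only and 47 for the control library only, each with a median of 3 reads. From end to end the members spanned a median of 7349 bp, beside 5804 bp for all, and of 5205 bp without ADAMTS6. An end was shared with another junction of the same gene in 57.8% (49.9 to 65.4), beside 61.7% (60.9 to 62.4). A circBase identifier was carried by 78 members (47.0%, 39.2 to 54.9), beside 58.6% (57.8 to 59.4). Among hosts with 11 or more junctions it ran from 2 of 14 for FN1 and 2 of 13 for ADAM32 up to 18 of 26 for ADAMTS6. Catalogued junctions held 78.2% of the member reads in the BCP library (75.9 to 80.4) and 70.8% in the control library (68.3 to 73.3), beside 82.5% in BCP and 84.5% in control for all.

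Other genes of the same pathways, in lists chosen with earlier results of these data known, were set beside the members. For each list, the calls stand beside 13.3% higher and 14.2% lower over all host genes with 10 or more reads. Of 61 partners of focal adhesions, 40 had a circRNA and 26 had 10 or more reads. Of these 1 was higher, 6 were lower and 19 lay between, with a median log2 ratio of -0.26. Among those with 20 or more reads, the kinase PAK1 (6 reads in the BCP and 30 in the control library; 0.21, 0.072 to 0.51) and the actin crosslinker ACTN1 (9 BCP and 38 control reads; 0.25, 0.11 to 0.53) were lowest. The phosphatase PTPN11 (51 BCP and 30 control reads; 1.79, 1.12 to 2.92) and TNS3, a tensin (16 BCP and 12 control reads on different junctions), were highest.

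Of 67 other matrix genes, 20 had a circRNA and 12 had 10 or more reads, with none higher, 1 lower and a median of 0.30. The gene called lower was FBLN2, a fibulin, with no BCP reads listed and 14 control reads, named after its value was seen. Among those with 20 or more reads, the procollagen-processing protease TLL1 (40 BCP and 22 control reads; 1.92, 1.11 to 3.39) and the peroxidasin PXDN (16 BCP and 9 control reads; 1.87, 0.78 to 4.81) were highest, and the proteoglycan SPOCK1 (9 BCP and 18 control reads; 0.53, 0.21 to 1.24) and the basement membrane linker NID1 (12 BCP and 15 control reads; 0.84, 0.36 to 1.93) were lowest. Of 67 cell junction genes, 23 had a circRNA and 18 had 10 or more reads, with 2 higher, 3 lower and a median of 0.04. Among those with 20 or more reads, FAT3, a large cadherin relative (141 BCP and 74 control reads; 2.01, 1.51 to 2.70), and MLLT4, or afadin (50 BCP and 27 control reads; 1.95, 1.20 to 3.24), were highest. In the same range the adhesion molecule MCAM (2 BCP and 22 control reads; 0.096, 0.011 to 0.39) and VEZT, or vezatin (8 BCP and 19 control reads; 0.44, 0.17 to 1.06), were lowest.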

How the data were processed

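RNA was depleted of ribosomal RNA and digested with 16 units of RNase R for 15 minutes at 37 °C to remove linear RNA, and strand-marked libraries were made, per the labels' protocols. The submitters' processing notes name CASAVA 1.8, BWA and rn6, with no role for any. Neither the tool that called circRNAs nor its minimum of reads is given in the sources used here. The deposited values are named TPM per the file headers, yet were taken as RPM: above the deposited placeholder of 0.001, 100% were whole multiples of 1 step per library to within 0.001 reads, so gene length does not enter. Reads were the values over that step. The lowest listed value was 2 reads, so no fold is given against a library with none listed, nor for hosts without a junction listed in both.

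Members needed a host entry without a comma. Host sums over the whole table used entries with 1 name that was neither a small RNA nor a date in day and month form. Names that are bare numbers, such as 43162 and 43527, stayed among the host genes. CircRNAs on chromosome Y were left out. Each ratio is the bone cancer pain share over the control share of junction reads, with a 95% interval from the exact binomial (Clopper-Pearson) distribution conditional on the reads of both, and shares have the plain form. These cover counting error only, since PCR reads are not independent molecules. The script was tested on simulated data. The members and lists were chosen with earlier results of these data known. Named were all member hosts with 20 or more reads, the 5 highest and 5 lowest member circRNAs with 20 or more, leading junctions, and the 2 highest and 2 lowest of each partner list; members with fewer reads were added after their values were seen. Alternatives covered scaling, read minimum, added reads, fold, catalogued or shared junctions only, thinning, and leading junctions left out. The tools were scipy 1.17.1, numpy 2.4.6, pandas 2.3.3, matplotlib 3.10.9 and Python 3.11.15.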

Additional observations from a re-analysis of the deposited data

How the results depend on the processing

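No paired analysis was possible because each group had 1 library. Of 161 alternatives to 32 results, 135 stayed within the set bounds (the counting interval for ratios, 1.5 times for counts, and the exact order-statistic interval for medians), among them all with another scaling. These bounds were wide where reads were few, such as 1.41 to 58.2 for lysyl oxidases. They also held medians that changed sign, so staying within them is a weak measure of stability. The scalings shifted log2 ratios by 0.08 (median of ratios, which put the matrix glycoproteins at 0.95) and 0.01 (TMM, a trimmed mean of ratios). The member ratio of 1.09 became 1.21 with catalogued circRNAs only, 1.00 without the junction with the most reads and 0.896 without ADAMTS6, the last chosen after seeing the data. The matrix glycoprotein ratio of 1.00 became 1.29 on junctions listed in both libraries and 1.39 without the leading SPARC junction, and the lysyl oxidase ratio of 6.33 became 1.05 on its shared junction. SPARC reversed to 1.43 with catalogued or shared junctions only and to 1.67 without its leading junction. With catalogued junctions only, ADAM17 turned from 0.78 to 1.21 and ADAM32 from 1.45 to 0.53, and FN1 went to 1.16; without its leading junction ADAM17 was at 1.09. The 6 of 26 hosts higher became 2 of 17 with catalogued circRNAs, 1 of 17 with shared junctions and 2 of 12 at a minimum of 20 reads. Over all host genes these settings gave 285 of 2435, 265 of 2601 and 212 of 2235 higher. The 7 of 26 lower became 2 of 17, 2 of 17 and 2 of 12 under the same settings, beside 350 of 2435, 290 of 2601 and 216 of 2235 over all. They were 11 of 35 at a minimum of 5 reads, beside 659 of 3832 over all. At a ratio of 1.5 they were 12 of 26, beside 762 of 3038 over all. The median log2 ratio of member hosts, -0.29, changed sign to 0.21 with catalogued circRNAs, 0.28 with shared junctions and 0.03 at a minimum of 20 reads. With catalogued circRNAs the medians of other matrix genes and of cell junction genes also changed sign, to -0.20 and -0.13, and the first was -0.11 at a minimum of 5 reads. Of single circRNAs, the 11 of 46 higher became 20 of 83 and 5 of 27 at minimums of 5 and 20 reads. The 9 of 46 lower became 27 of 83 and 4 of 27, and 3 of 30 with catalogued circRNAs only. The matching counts over all circRNAs are not given here. Of member circRNAs with 10 or more reads, 89.1% were listed in both libraries (76.4 to 96.4), beside 94.5% of all such circRNAs (93.8 to 95.1). The cause of these moves was not tested beyond the circRNAs each setting leaves out. Each group has 1 library, which greater depth would not change, and 67 of 166 members had 2 or 3 reads over both libraries.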

Other observations

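A further 17 circRNAs carried a host entry that joins small RNA names and 1 member gene with commas, and were not counted above. Together they had 71 reads in the bone cancer pain (BCP) library and 77 in the control library (ratio 0.97, 0.69 to 1.36). ADAMTS6 had 6 of them, with 43 BCP and 47 control reads (0.96, 0.62 to 1.49), which would bring the gene to 781 BCP and 629 control reads (1.31, 1.18 to 1.46). Among these, the junctions at chromosome 5, 64625205 to 64630285, had 17 BCP and 6 control reads (2.99, 1.12 to 9.25) and at 64493020 to 64509953 had 2 BCP and 16 control reads (0.13, 0.015 to 0.56). PCDH7 had 3 such circRNAs with 13 BCP and 21 control reads, beside no BCP reads listed and 8 control reads under its own name, which would bring it to 13 BCP and 29 control reads (0.47, 0.23 to 0.94). FN1 had 1, with 2 reads in the BCP library and none listed in the control library.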
